A study of Mus musculus with 6 samples.

Results

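Myeloperoxidase (Mpo) and the 3 serine proteases neutrophil elastase (Elane), proteinase 3 (Prtn3) and cathepsin G (Ctsg) are the classic contents of the primary, or azurophil, granules of neutrophils. The genes were taken by name from 6 RNA-seq libraries, and all 4 were found among 23284 gene names. All 4 were also among the 10865 genes whose average level reached 1 FPKM, the filter on low values. FPKM is the number of sequenced fragments scaled for transcript length and library size. It allows genes to be compared, while comparison between libraries also depends on their composition and scaling. The genes S100a8 and S100a9 alone held 14.2 to 21.9% of the FPKM sum over the 6 libraries.

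Neutrophils fill their granules in sequence. Promyelocytes make the primary granule proteins, myelocytes and later stages switch these genes off and make secondary and tertiary granule proteins, and mature neutrophils carry the stored proteins with little of the primary granule mRNA. Monocyte progenitors use the same genes for a time. Mpo turns hydrogen peroxide and chloride into hypochlorous acid, while the 3 proteases degrade bacterial and matrix proteins and can process cytokines.

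The cells were sorted by green fluorescence from calvaria (the roof of the skull). In the CX3CR1-EGFP mice used, EGFP marks cells that use the fractalkine receptor gene. All mice had received lipopolysaccharide (LPS), a bacterial product that provokes inflammation, at the calvarial periosteum. One group of 3 libraries came from mice also given 10 mg/kg CTLA4-Ig (abatacept), a fusion protein that binds CD80 and CD86, and the other 3 from mice given 10 mg/kg whole human IgG, and cells were collected after 5 days. The labels number biological replicates without saying which or how many animals each holds, so p-values measure the spread between these libraries. They give no strain, age or sex, and there is no group without LPS.

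Depth, read from the steps between low values, was roughly 8629587 to 10597008 fragments in the CTLA4-Ig libraries and 8868106 to 9601063 in the controls. Cx3cr1, the gene that EGFP reports, stood at 16.6 to 26.5 FPKM in CTLA4-Ig libraries and 12.3 to 32.5 FPKM in controls. Csf1r, a monocyte receptor gene, stood at 140.4 to 171 FPKM with CTLA4-Ig, against 142 to 193 FPKM in controls. The defining osteoclast gene Calcr was listed at 0 in every CTLA4-Ig library and reached 0.0322 FPKM in 1 control library. Over all 9 osteoclast markers listed, levels summed to 250 to 292 FPKM with CTLA4-Ig and 132 to 183 FPKM with control IgG. Mmp9, also a tertiary granule gene, averaged 205 FPKM with CTLA4-Ig and 102 FPKM with control IgG. Of the 6 markers tested, 3 log2 fold changes were positive and 3 negative, with a median of -0.03, or 0.03 without control library 1. On the higher side 3 did not overlap between groups, where 6.5% of all genes tested did not. Control library 1 stood apart: 2.03% of the genes tested lay more than 1 log2 unit from the median of the other 5 libraries, against 0.497 to 0.782% in the other libraries. Its summed erythroid markers were 9.53 FPKM, against 75.8 to 110 FPKM with CTLA4-Ig and 113 to 124 FPKM in the other controls. The 4 genes and the medians of the gene lists are therefore given with and without it.

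The primary granule genes were strongly expressed in these sorted cells. Elane stood at 840.0, 918 and 1118 FPKM in CTLA4-Ig libraries 1, 2 and 3, against 1098, 932 and 929 FPKM in control libraries 1, 2 and 3. Prtn3 stood at 733, 827 and 973 FPKM with CTLA4-Ig, against 1172, 795 and 819.7 FPKM with control IgG. Mpo stood at 603, 656 and 841 FPKM with CTLA4-Ig, against 734, 683 and 683 FPKM with control IgG. In each gene CTLA4-Ig library 3 and control library 1 were the 2 highest libraries, and the groups overlapped.

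Ctsg had the lowest level of the 4, at 348, 364 and 498 FPKM with CTLA4-Ig against 521, 404 and 389.6 FPKM with control IgG. Among all 23284 names, Elane ranked between places 105 and 123 over the 6 libraries, Prtn3 between 102 and 137, Mpo between 129 and 152 and Ctsg between 179 and 255. These levels correspond to an estimated 3144 to 24495 fragments per gene and library, so counting error is small beside the spread between libraries. The 4 genes together made up 0.325 to 0.409% of the FPKM total in CTLA4-Ig libraries, against 0.376 to 0.464% in controls.

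**Figure D1:**
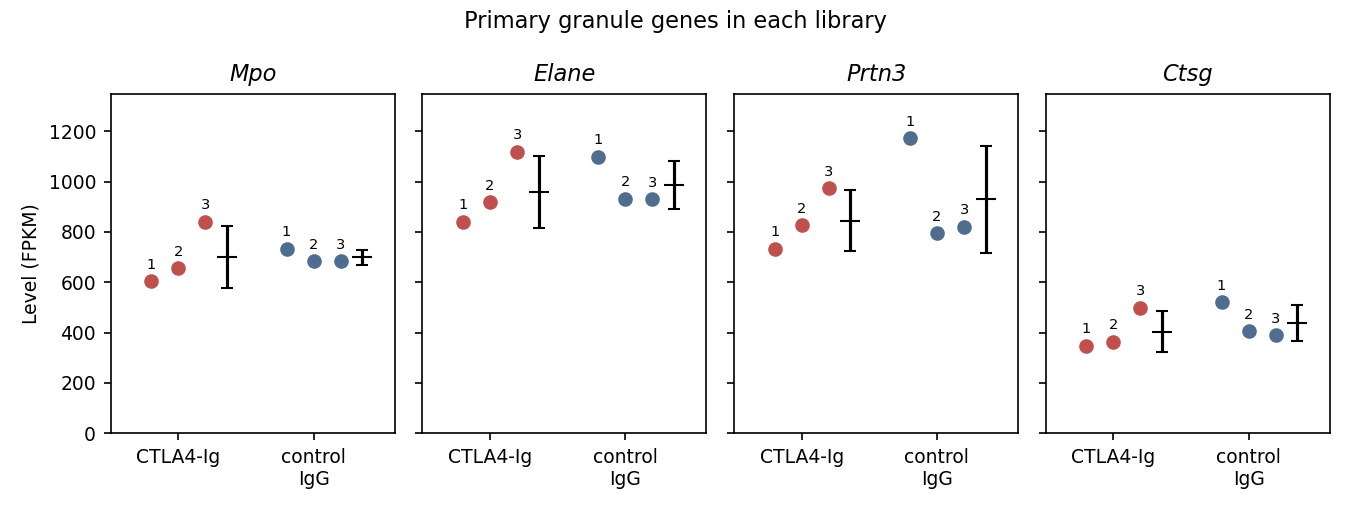
Level of Mpo, Elane, Prtn3 and Ctsg in FPKM (vertical axis, from 0) in each library, with CTLA4-Ig libraries in red and control IgG libraries in blue, numbered by replicate; the black bar is the mean ± SD of 3 libraries. The groups overlap in all 4 genes, and CTLA4-Ig library 3 and control library 1 are the highest points of each panel.

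The order of the levels was the same in 5 of 6 libraries, with Elane highest, then Prtn3, Mpo and Ctsg. In control library 1 Prtn3 exceeded Elane, and there the ratio of Elane to Prtn3 was 0.937, against up to 1.17 elsewhere. Neighbours in the order were close: Elane and Prtn3 averaged 959 ± 143 and 844 ± 121 FPKM with CTLA4-Ig, and 987 ± 96.7 and 929 ± 211 FPKM with control IgG (SD, n = 3 each). The ranges of Elane and Prtn3, and those of Prtn3 and Mpo, overlapped over the libraries. Mpo and Ctsg did not: the lowest Mpo value, 603 FPKM, lay above the highest Ctsg value, 521 FPKM.

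CTLA4-Ig and control IgG libraries did not differ detectably in any of the 4 genes. Mpo averaged 699.8 ± 125 FPKM with CTLA4-Ig and 699.7 ± 29.6 FPKM with control IgG (SD, n = 3 each), and Ctsg averaged 403 ± 82.3 and 438 ± 71.8 FPKM. On the scale of log2(FPKM + 1) Mpo had a fold change of -0.01 ± 0.13 and Elane one of -0.05 ± 0.13 (SE; limma, Benjamini-Hochberg adjusted p = 0.993 and 0.977). Prtn3 had -0.12 ± 0.17 and Ctsg -0.13 ± 0.17 (SE; limma, adjusted p = 0.936 and 0.931).

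The test called 0 of the 4 genes at an adjusted p under 0.05, where it called 0 of 10865 genes (0%). At an unadjusted p under 0.05 limma had 659 genes (6.07%), of which 0 were among these 4. CTLA4-Ig and control values lay wholly apart in 1324 genes (12.2%), and in 0 of the 4. All 4 fold changes were below 0, as were those of 52.3% of all genes tested. Their median was -0.09, beside a median of -0.01 over all genes.

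The 95% intervals show which differences these libraries leave possible. For CTLA4-Ig over control IgG the interval of Mpo ran from 0.806 to 1.22-fold and that of Elane from 0.788 to 1.19-fold. The interval of Prtn3 ran from 0.689 to 1.22-fold and that of Ctsg from 0.695 to 1.21-fold. The direction depended on single libraries. Without control library 1 all 4 turned positive in limma, with a log2 fold change of 0.02 in Mpo, 0.03 in Elane, 0.06 in Prtn3 and 0.0032 in Ctsg (adjusted p from 0.927 to 0.996). Mpo was also positive without CTLA4-Ig library 1 or 2, at 0.09 and 0.03, and Elane without CTLA4-Ig library 1, at 0.04. Without CTLA4-Ig library 3 the values were -0.15, -0.16, -0.23 and -0.29 in the order Mpo, Elane, Prtn3 and Ctsg (limma, adjusted p from 0.823 to 0.883). In bulk RNA a smaller share of cells with these transcripts and less transcript per cell cannot be told apart.

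The 4 genes shared a profile over the libraries that did not follow the groups. Centred on each gene's own mean, their average was 0.22 log2 units in CTLA4-Ig library 3 and 0.25 in control library 1, against -0.23 and -0.11 in CTLA4-Ig libraries 1 and 2 and -0.07 in both other controls. Mpo and Elane were the closest pair, with a root mean square difference of 0.05 between their centred values over the 6 libraries, and Mpo and Prtn3 the least close, at 0.16. In control library 1 Prtn3 deviated by 0.42 and Ctsg by 0.32, while Mpo deviated by 0.08. The spread within groups was wide for abundant genes: of the 892 genes averaging 100 FPKM or more, 82.2% had a smaller residual SD than Mpo and 81.5% a smaller one than Elane. The shares were 90.2% for Prtn3 and 89.9% for Ctsg.

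The 8 genes with the most similar profile included no other granule gene, though some related genes were also closer than the median gene. Among 6598 other genes averaging 10 FPKM or more, the 8 closest by root mean square difference from the mean centred profile over the 6 libraries were Tbc1d23, Pex7, Rps27a, Tbc1d15, Gm11974, Rpl35, Rps23 and Rpl12. Their differences ran from 0.04 to 0.07, where the median gene had 0.20 and a flat profile would have 0.18. The early granulocyte genes Prss57 and Ms4a3 had 0.09 and 0.12, and the granule proteoglycan gene Srgn had 0.10. Cebpe, Camp and Ngp, genes of the later granule stage, were further away than the median gene, at 0.39, 0.47 and 0.48. Rps27a, Rpl35, Rps23 and Rpl12 encode ribosomal proteins. Rps27a stood at 1357, 1372 and 1687 FPKM with CTLA4-Ig against 1793, 1479 and 1501 FPKM with control IgG, high in the same 2 libraries as the granule genes.

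Looked at after those names were seen, 80 ribosomal protein genes had a median centred value of 0.10 in CTLA4-Ig library 3 and 0.18 in control library 1, against -0.08, -0.14, -0.05 and 0.01 in the others. Their median difference from the granule gene profile was 0.10. Genes with transcripts under 1100 bases other than ribosomal protein genes, 346 in all, had a median centred value of 0.05 in CTLA4-Ig library 3 and 0.01 in control library 1. The transcripts of the 3 proteases have 984 to 1025 bases and that of Mpo has 2750. What part transcript length or library quality has in the shared profile was not tested.

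**Figure D2:**
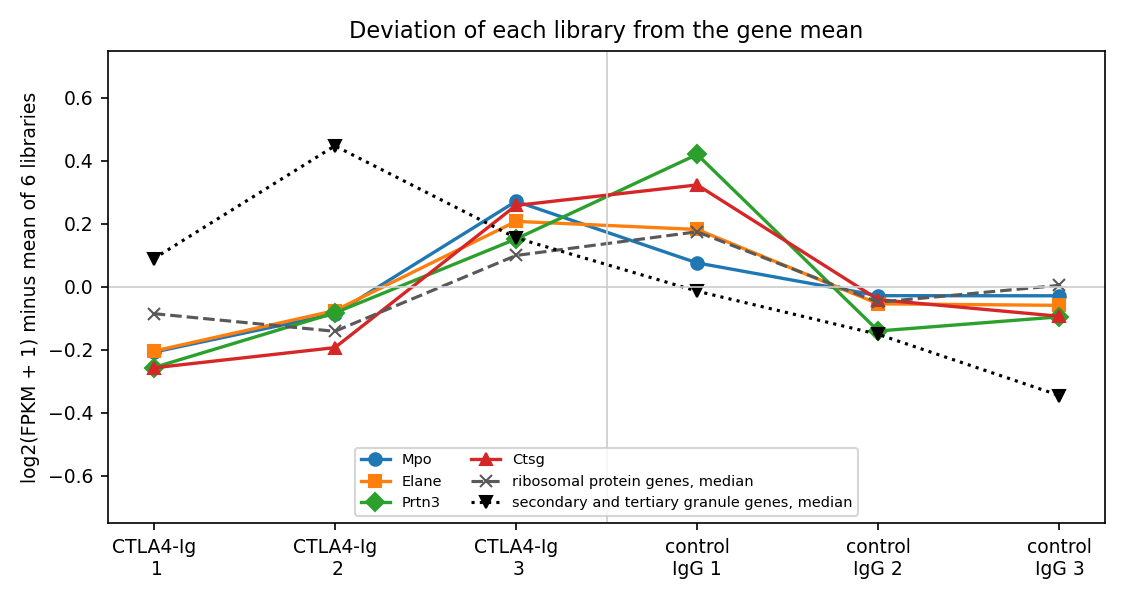
Deviation of log2(FPKM + 1) from the gene's mean over the 6 libraries (vertical axis, log2 units) for the 4 primary granule genes, with medians of 80 ribosomal protein genes and of 15 secondary and tertiary granule genes, CTLA4-Ig libraries left and control IgG libraries right. The 4 genes and the ribosomal median are highest in CTLA4-Ig library 3 and control library 1, whereas the secondary and tertiary median is highest in CTLA4-Ig library 2, at 0.45, and lowest in control library 3, at -0.34.

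The granule genes were higher in every library than the matched genes around them on the chromosome. In RefSeq on GRCm38 (mm10 build), Prtn3 (chromosome 10, 79879667 to 79883174) and Elane (79886312 to 79888216) lie 3137 bases apart on the plus strand. Their GENCODE transcripts have 5 exons each and start 53 and 65 bases before the RefSeq starts. The next gene after Elane, Cfd, encodes the protease complement factor D and reached only 0.149 FPKM in any library. Beyond it the Mediator subunit gene Med16 stood at 14.5 to 17.9 FPKM, and before Prtn3 the splicing regulator gene Ptbp1 stood at 136 to 156 FPKM. Prtn3 and Elane were the highest of the genes matched in this stretch; Plppr3 was not matched to the files.

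**Figure D3:**
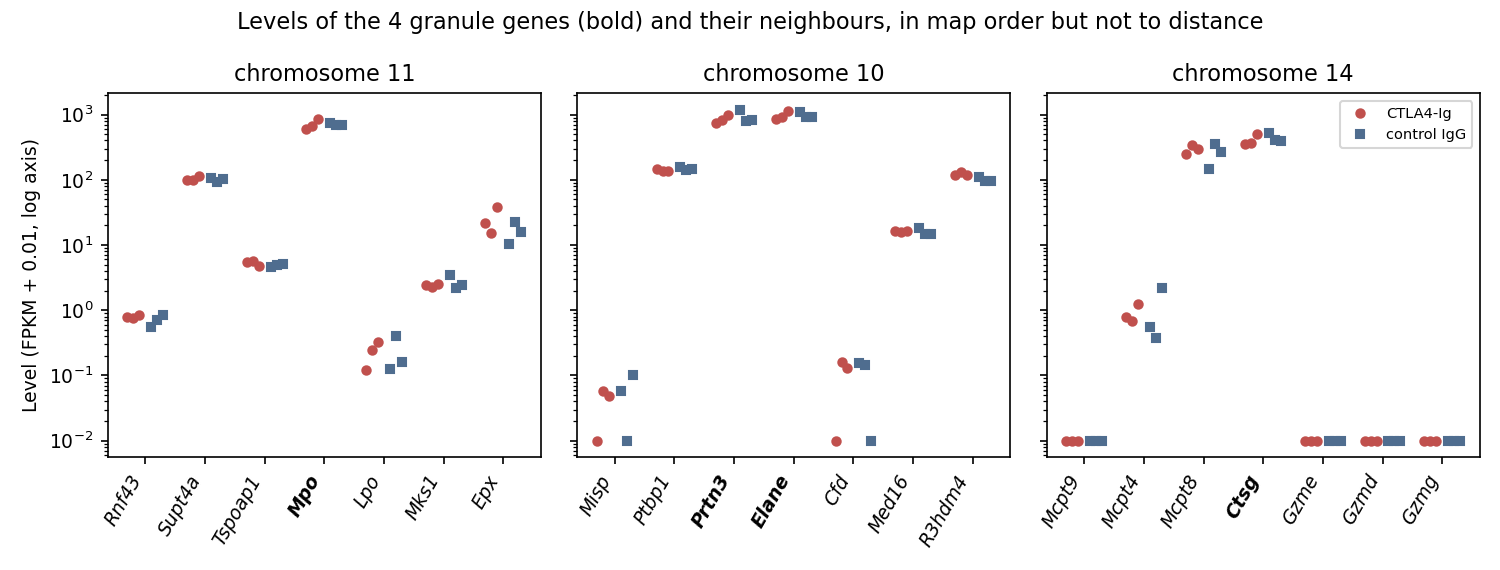
Level in FPKM plus 0.01 (log axis) of the granule genes, in bold, and of up to 3 protein-coding genes on each side in chromosome order, with CTLA4-Ig libraries as red circles left of the control IgG libraries as blue squares. Within each library the granule genes are the highest of their blocks, with Mcpt8 beside Ctsg the closest neighbour in level.

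In RefSeq, Mpo (chromosome 11, 87793784 to 87804412, plus strand) lies 2015 bases from Lpo, the lactoperoxidase gene. The eosinophil peroxidase gene, Epx, is 59584 bases from Mpo. The GENCODE transcript of Mpo has 14 exons and starts 203 bases before the RefSeq start. Lpo stood at 0.110 to 0.320 FPKM with CTLA4-Ig and 0.116 to 0.391 FPKM with control IgG. Epx stood at 21.7, 15.1 and 38.2 FPKM with CTLA4-Ig and 10.3, 22.5 and 15.6 FPKM with control IgG. Of the 3 peroxidase genes Mpo was the highest in each library, at 22.0 to 43.5 times the level of Epx with CTLA4-Ig and 30.3 to 71.4 times with control IgG. The noncoding Gm34064 overlaps Mpo, and whether strand was used in counting is not given in the sources used here, so reads of both could be mixed.

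Ctsg (chromosome 14, 56099885 to 56102574, minus strand, 5 exons) sits in the cluster of mast cell protease and granzyme genes. The adjacent Mcpt8, which encodes a basophil protease, stood at 247, 341 and 295 FPKM with CTLA4-Ig and 145, 352 and 266 FPKM with control IgG. On the other side Gzme, Gzmd and Gzmg were listed at 0 in all 6 libraries. Mcpt8 was lowest in control library 1, where Ctsg was highest. Over the other peroxidases and granule proteases, 8 of 18 listed were tested, with 0 calls in limma, 4 positive and 4 negative log2 fold changes and a median of 0.12, or 0.0050 without control library 1. The 4 granule transcripts, 1 per gene, share no run of 31 bases with the annotated transcripts of any other gene. Only runs in the sense direction were searched. The longest run common to a pair was 17 bases, between Elane and Prtn3.

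The sequence just upstream of the 4 genes is shown because all 4 windows hold the same myeloid motif, the PU box GAGGAA, which the transcription factor PU.1 can bind. It is in capitals below, on the coding strand, in the part of the 250 bases before the RefSeq start that precedes the first exon in GENCODE (RefSeq, GRCm38.p6):
Mpo, chr11:87793534-87793580, plus strand: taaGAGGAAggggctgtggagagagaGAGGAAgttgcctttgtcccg
Elane, chr10:79886062-79886246, plus strand: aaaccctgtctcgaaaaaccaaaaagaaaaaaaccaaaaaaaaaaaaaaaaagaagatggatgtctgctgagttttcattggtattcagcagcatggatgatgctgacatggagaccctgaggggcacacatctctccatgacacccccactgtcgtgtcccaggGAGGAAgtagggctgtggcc
Prtn3, chr10:79879417-79879613, plus strand: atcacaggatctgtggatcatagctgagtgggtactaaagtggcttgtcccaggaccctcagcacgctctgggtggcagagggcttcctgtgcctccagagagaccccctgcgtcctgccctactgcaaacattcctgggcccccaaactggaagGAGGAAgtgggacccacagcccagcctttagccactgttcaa
Ctsg, chr14:56102575-56102824, minus strand: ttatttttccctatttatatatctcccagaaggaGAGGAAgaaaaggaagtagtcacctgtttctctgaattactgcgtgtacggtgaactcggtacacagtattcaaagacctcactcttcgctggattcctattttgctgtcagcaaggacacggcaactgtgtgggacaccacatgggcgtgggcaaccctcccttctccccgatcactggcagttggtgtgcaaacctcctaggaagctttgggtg

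GAGGAA, searched on both strands, began 85 bases before the RefSeq start in Elane, 95 before it in Prtn3, 216 in Ctsg, and 247 and 224 in Mpo. Of 32841 promoter windows of 250 bases, 23.3% held it. The motifs were chosen after the sequences were seen, so its presence in all 4 windows is no test of enrichment. The C/EBP pattern TTNCNNAA was in 0 of the 4 windows and in 36.9% of all, and the MYB pattern AACNG was in all 4 and in 74.2% of all. The RUNX pattern TGTGGT was in Ctsg alone of the 4, and in 14.05% of all windows. Matches were sought in all 250 bases, part of which is not printed, and are matches of letters, not measured binding.

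The next list holds genes for folding, processing or sorting of granule proteins, together with genes known from inherited neutropenia (Hax1, G6pc3, Vps45) and the proton pump subunit gene Tcirg1, whose products are not particular to the 4 proteins. Of its 11 genes, all tested, 0 passed at an adjusted p under 0.05 in limma, 8 had a negative log2 fold change and the median was -0.15, beside -0.01 over all genes. The median was -0.11 without control library 1 and -0.096 without CTLA4-Ig library 2. In limma 3 of the 11 were lower at an unadjusted p under 0.05, where 1.98% of all genes tested were. Srgn encodes serglycin, the proteoglycan that holds elastase in granules in mice. It stood at 351, 398 and 562 FPKM with CTLA4-Ig against 597, 431 and 416 FPKM with control IgG, high in the same 2 libraries as the granule genes. Ctsc encodes dipeptidyl peptidase I, which activates the 3 proteases, and stood at 211, 207 and 161 FPKM against 255, 201 and 240.3 FPKM, with CTLA4-Ig library 3 the lowest.

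Calnexin (Canx) and Pdia3, endoplasmic reticulum proteins that help Mpo fold, lay below every control library with CTLA4-Ig. Canx stood at 93.8, 91.5 and 84.7 FPKM with CTLA4-Ig against 98.6, 103 and 97.6 FPKM with control IgG, a log2 fold change of -0.15 ± 0.06 (SE; limma, adjusted p = 0.801). Pdia3 stood at 235, 219.7 and 209.6 FPKM against 256, 255 and 239 FPKM, a log2 fold change of -0.18 ± 0.06 (SE; limma, adjusted p = 0.751). Such lack of overlap on the lower side was seen in 4 of the 11 genes, the others being Ap3b1 and Vps45, and in 5.69% of all genes tested. Calreticulin (Calr), a chaperone of Mpo, stood at -0.21 on the log2 fold change scale. Cd63, a tetraspanin whose protein takes part in sorting elastase, stood at 0.31 on that scale.

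Listed protease inhibitor genes went both ways. Of 11 listed, 6 were tested and 0 passed in limma, with 3 positive and 3 negative and a median of -0.02. Without control library 1 the median was 0.31. The negative genes included Expi, averaging 1.16 FPKM with CTLA4-Ig and 2.73 FPKM with control IgG, and Serpina3g, averaging 2.86 and 3.84 FPKM. The other, Wfdc17 (Gm11428 in the files), stood at 202, 261 and 192 FPKM against 475, 186 and 183 FPKM, highest in control library 1. The positive genes were Serpinb1a, Slpi and Serpinb6a, with log2 fold changes of 0.18, 0.30 and 0.48. Serpinb1a, whose product inhibits all 3 proteases, stood at 279, 347 and 344 FPKM with CTLA4-Ig against 379.6, 269.9 and 223 FPKM with control IgG. Slpi, the secretory leukocyte protease inhibitor, stood at 203, 249 and 201 FPKM against 213, 175 and 145 FPKM. The cathepsin G inhibitor gene Serpinb6a did not overlap between groups, at 20.3, 20.2 and 29.3 FPKM against 17.2, 15.6 and 15.6 FPKM, a log2 fold change of 0.48 ± 0.15 (SE; limma, adjusted p = 0.720). On the higher side 6.5% of all genes tested lacked overlap.

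Transcription factors of the lineage also had 0 of 13 tested members past the threshold in limma, with 9 positive log2 fold changes and a median of 0.09, or 0.02 without control library 1. Cebpa, which starts the granulocyte programme, stood at 60.1, 53.2 and 64.7 FPKM with CTLA4-Ig against 69.9, 61.4 and 65.6 FPKM with control IgG. Cebpe, needed for secondary granules, stood at 189, 228 and 180.3 FPKM against 132, 143 and 139 FPKM, with no overlap and a log2 fold change of 0.52 ± 0.10 (SE; limma, adjusted p = 0.720). Spi1, which encodes PU.1 and is named Sfpi1 in the files, stood at 345, 352 and 336 FPKM against 360.2, 288 and 315 FPKM. Myb had a log2 fold change of 0.10 and Gfi1, a repressor needed for neutrophil development, had 0.09. Ets1 did not overlap on the higher side, with a log2 fold change of 0.42. Myc and Cbfb did not overlap on the lower side, with log2 fold changes of -0.24 and -0.08. Thus 2 of the 13 lacked overlap on the higher side and 2 on the lower, against 6.5% and 5.69% of all genes tested. At an unadjusted p under 0.05 limma had 3 of the 13 higher and 1 lower, against 4.09% and 1.98% of all genes tested.

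**Figure D4:**
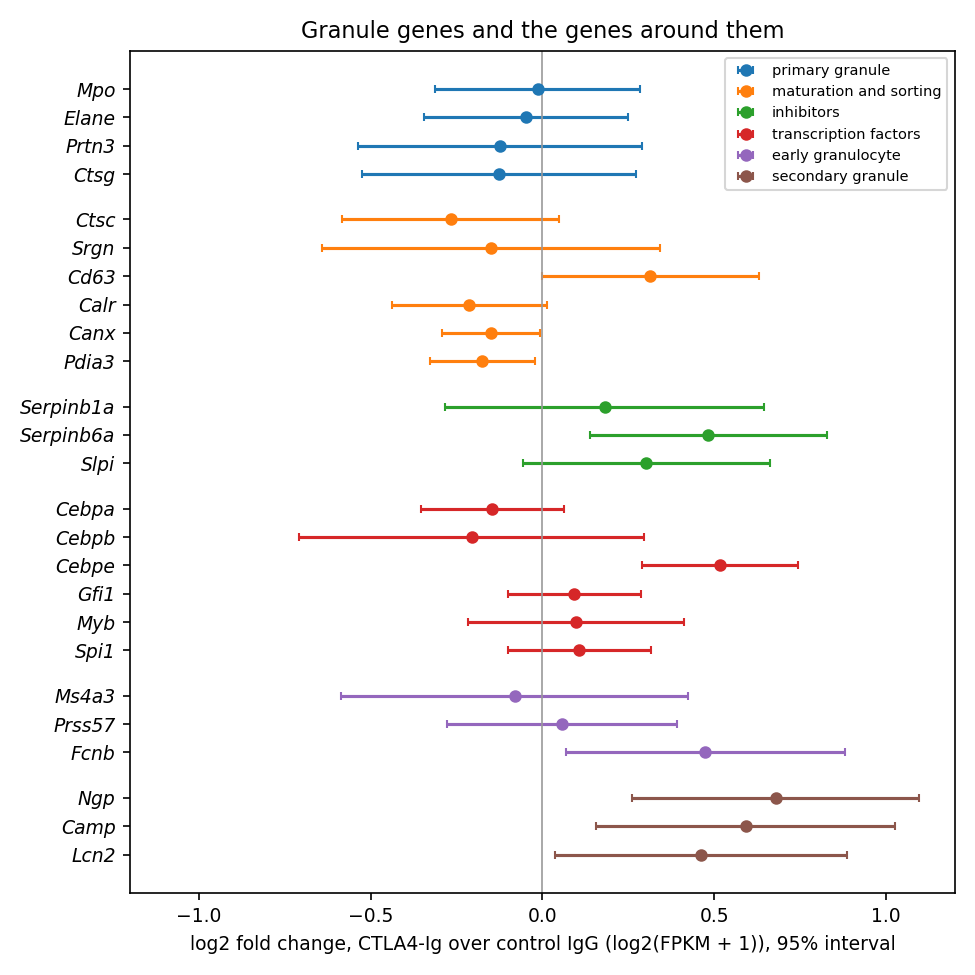
Log2 fold change of CTLA4-Ig over control IgG on log2(FPKM + 1) with its 95% interval from limma (3 libraries per group) for the primary granule genes and for named genes of 5 other lists, in colour by list. Intervals of the 4 primary granule genes span 0; before adjustment for the number of genes, those of Serpinb6a, Cebpe, Fcnb, Ngp, Camp and Lcn2 lie above 0 and those of Canx and Pdia3 below 0.

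Early granulocyte genes were also without a call: 0 of 12 passed in limma, 9 were positive and the median was 0.12, or 0.11 without control library 1. Without CTLA4-Ig library 3 that median was 0.01, and without CTLA4-Ig library 1 it was 0.19. Ms4a3, which marks granulocyte and monocyte progenitors, stood at 169, 203 and 252 FPKM with CTLA4-Ig against 290.2, 196 and 179.6 FPKM with control IgG. Prss57, which encodes neutrophil serine protease 4, the lowest of the neutrophil serine proteases here, stood at 16.1, 19.4 and 22.8 FPKM against 21.2, 18.0 and 16.5 FPKM. Both were highest in CTLA4-Ig library 3 and control library 1, like the 4 genes. The ficolin gene Fcnb was not, at 548, 742 and 680.3 FPKM against 371, 541 and 512 FPKM, with control library 1 the lowest.

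Other azurophil contents, 13 tested of 14 listed, had 0 calls in limma, 5 positive members and a median of -0.03, or -0.02 without control library 1. Without control library 2 the median was -0.08, and without CTLA4-Ig library 3 it was -0.07. Lysozyme 2 (Lyz2) was their most abundant gene, at 18726 to 20178 FPKM with CTLA4-Ig against 13783, 19377 and 19138 FPKM in control libraries 1, 2 and 3. Cell cycle genes, listed because promyelocytes divide, had 0 of 20 calls in limma and a median of 0.02, or -0.02 without control library 1. Their summed level was 2144 to 2217 FPKM with CTLA4-Ig and 2136 to 2189.8 FPKM with control IgG.

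Secondary and tertiary granule genes, made later in the lineage, had other values in the same libraries. Of 15 tested, 0 passed in limma, 14 were positive and the median was 0.47. It was 0.56 without control library 1 and 0.37 without CTLA4-Ig library 2, and under quantile normalization it was 0.19. In limma 9 of the 15 were higher at an unadjusted p under 0.05, where 4.09% of all genes tested were. Ngp stood at 16333, 21790.2 and 16846 FPKM with CTLA4-Ig against 9749, 12962 and 11575 FPKM with control IgG, and its log2 fold change of 0.68 was 0.11 under quantile normalization. That of Camp was 0.59, and 0.14 under quantile normalization. The mean log2 value of the 15 genes minus that of the 4 primary granule genes was 0.11, 0.32 and -0.22 in CTLA4-Ig libraries 1, 2 and 3, against -0.53, -0.34 and -0.58 in control libraries 1, 2 and 3. The groups do not overlap in this difference, whose test was not run because the genes were chosen with earlier results known. They also do not overlap in the mean log2 value of the 15 genes alone. That mean was 9.34, 9.67 and 9.46 in CTLA4-Ig libraries 1, 2 and 3, against 9.18, 9.06 and 8.81 in control libraries 1, 2 and 3. In the mean of the 4 primary granule genes the groups overlap.

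Markers of mature neutrophils were summed in the same way. Their level, over 10 of 11 genes matched, was 132068 to 186812 FPKM with CTLA4-Ig and 104660.1 to 119347 FPKM with control IgG, nearly all of it S100a8 and S100a9. The other 8 genes summed to 420, 533 and 483 FPKM with CTLA4-Ig against 712, 371 and 288 FPKM with control IgG, so the groups overlapped and control library 1 was the highest. Of the 10 genes, 3 lacked overlap, all higher with CTLA4-Ig, where 6.5% of all genes tested did. In limma 3 of the 10 were higher at an unadjusted p under 0.05, where 4.09% of all genes tested were. The median log2 fold change of the 10 genes was 0.46, with 0 of 10 called in limma. It was 0.57 without control library 1, 0.21 without control library 3 and 0.20 under quantile normalization, and Il1r2 had -0.51. The part of mature neutrophil RNA in the values of the primary granule genes was not tested. The 16 eosinophil, basophil and mast cell markers include neighbours of Mpo and Ctsg. They summed to 1422 to 2122 FPKM with CTLA4-Ig and 1072 to 1662 FPKM with control IgG. Il5ra and Ccr3 were below 1 FPKM in every library, while Prg2 stood at 327 to 787 FPKM and Prss34 at 288 to 526 FPKM. Of the 14 markers tested, 12 log2 fold changes were positive and 2 negative, with 0 called in limma. Their median was 0.30, or 0.19 without control library 1. Monocyte markers, over 9 genes, summed to 3266 to 3612 FPKM with CTLA4-Ig and 3593 to 3773 FPKM with control IgG. Of these sums Ly6c2 alone made up 2157 to 2304 FPKM and 2167 to 2335 FPKM. Among the 9 genes, all tested, 5 log2 fold changes were positive and 4 negative, with 0 called in limma. The monocyte median was 0.05, or -0.06 without control library 1.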

How the data were processed

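The samples were 6 RNA-seq libraries, with groups from the treatment label and numbers from the sample titles. RNA and library kits, per the labels' protocols, were miRNeasy and stranded TruSeq mRNA. Per the submitters' processing notes, Cuffnorm 2.2.1, SAMtools 0.1.19, TopHat2 2.0.13 and Bowtie2 2.2.3 were run on mm10. Annotation, strand use and tool settings were not given in the sources used here. What the authors deposited was FPKM per gene name, which Cuffnorm by its nature scales between libraries, so no count test was run. Small RNA genes held 2.63 to 4.34% of the FPKM sum.

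The test was limma 3.58.1 under R 4.3.3, by lmFit and a trended eBayes, applied to log2(FPKM + 1). It covered the 10865 genes averaging 1 FPKM or more, with Benjamini-Hochberg adjustment over them and a threshold of 0.05. Fold changes on this scale understate those of low genes. On simulated data of 10865 independent genes, 200 drawn at random were changed. The recovered share was 45% at a true log2 change of 0.5 and 89% at a log2 change of 1, with 6.29% of calls false. These shares are not those of the 4 granule genes, whose recovery was not simulated. Their residual SDs were 0.18 to 0.26, beside a median of 0.115 over all genes tested. Depth was estimated from the commonest low value times transcript length, in genes with 1 transcript of at least 2000 bases. It includes any scaling by the authors, and fragments per gene are rough.

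Of 207 genes in 19 lists, 204 were matched, 6 through an older symbol in the RefSeq table of GRCm38.p6; Ly6g, Trac and Hbb-bt were not. Named genes were the 4 members, any gene of the maturation, inhibitor, transcription factor and early lists, the 3 most abundant of other lists, 3 neighbours on each side and the 8 most similar profiles. The members, lists and tests were chosen with earlier results of these data known, and Cx3cr1, Csf1r, Calcr, Il5ra, Ccr3, the ribosomal and length classes and the motifs after values or sequences were seen. Shared runs were searched in GENCODE M21 transcripts. Python 3.11.15, pandas 2.3.3, numpy 2.4.6 and matplotlib 3.10.9 were used. Alternatives were other pseudocounts (0.1, 0.5), filters (none, 5 FPKM), scalings (median of ratios, quantiles, sums without S100a8 and S100a9, no small RNA genes), weights per array, each library left out in turn, the replicate number as a block, and eBayes without trend or with a robust prior.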

Additional observations from a re-analysis of the deposited data

How the results depend on the processing

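Over 18 alternatives the 4 primary granule genes had 72 log2 fold changes, 65 negative and 7 positive, with limma adjusted p-values from 0.763 to 1.0. The 7 positive values came from leaving out control library 1 (all 4 genes), CTLA4-Ig library 1 (Mpo and Elane) or CTLA4-Ig library 2 (Mpo); the cause was not tested. With each library left out in turn, Mpo ran from -0.15 to 0.086, Elane from -0.16 to 0.043, Prtn3 from -0.23 to 0.055, Ctsg from -0.29 to 0.0032, Srgn from -0.35 to 0.015, Myb from -0.022 to 0.21, Ms4a3 from -0.23 to 0.13 and Prss57 from -0.059 to 0.18. The median of the inhibitors ran from -0.15 (without control library 2) to 0.31 (without control library 1) and that of the early granulocyte genes from 0.0054 (without CTLA4-Ig library 3) to 0.19. Over the same fits limma called 0 genes (without control library 1) to 6 genes (without CTLA4-Ig library 3), and 338 (without CTLA4-Ig library 2) to 858 had an unadjusted p under 0.05. Non-overlap held for 1941 to 2842 genes, which is easier with fewer libraries. Without a filter limma called 12 genes, and 1024 had an unadjusted p under 0.05. The inhibitor median was 0.24 at a minimum of 5 FPKM, where fewer genes were tested, and 0.18 with array weights. Array weights gave Ms4a3 0.017 and a transcription factor median of 0.0047, quantile normalization gave Lyz2 -0.11, Ngp 0.11, Camp 0.14 and medians of 0.19 for secondary and tertiary granule genes and 0.20 for mature neutrophil genes, and scaling to the sum without S100a8 and S100a9 gave a cell cycle median of -0.036. With the replicate number as a block, limma called 0 genes and 619 had an unadjusted p under 0.05. Mpo was then at -0.01, Elane at -0.05, Prtn3 at -0.12 and Ctsg at -0.13, and the block changed no call. Deviations of same-numbered libraries correlated over genes at -0.15, -0.09 and -0.02, and none correlated best with its own number, so the numbers were not taken as pairs. At the depth of these libraries the limit on the 4 genes is the spread between 3 libraries, not the fragment number.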
